A study of Homo sapiens with 16 samples.

Results

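The direct comparison set HEK293T cells that carried a mutant histone against HEK293T cells that carried the wild-type histone and a DOT1L inhibitor, with no control group between them. HEK293T is an established human embryonic kidney cell line. The first group held 4 libraries of cells with a lentivector for H2A(E92K) and DMSO as vehicle, called the mutant libraries here. The second held 4 libraries of cells with a lentivector for wild-type H2A and 2.5 µM pinometostat for 24 h, called the pinometostat libraries. Together they were 8 of the 16 libraries of the series. The other 8 were 4 of wild-type H2A cells in DMSO, called the control libraries, and 4 of wild-type H2A cells given JQ1, a BET bromodomain inhibitor, at 1 µM for 3 h. The members were the 17306 of 57500 listed genes whose counts passed the filter for low levels. Genotype, compound and treatment differed at once between the mutant and pinometostat libraries, so an effect of the mutation and an effect of the compound cannot be told apart within a difference. The labels give no exposure time for DMSO and do not name the H2A isoform in the vector. The vector was added to cells that have H2A genes of their own. They also do not state whether the 4 libraries of a group came from separate cultures, so p-values measure the spread between these libraries, which may be technical.

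The acidic patch is a negatively charged surface of the nucleosome formed by H2A and H2B, on which many chromatin proteins dock through an arginine. E92K replaces one of the glutamates of that surface with a lysine, which reverses its charge. DOT1L, the methyltransferase for a lysine in the core of histone H3, contacts the acidic patch and is helped by ubiquitin on H2B. Pinometostat occupies the cofactor site of DOT1L and blocks that methylation, which marks the bodies of transcribed genes. The comparison asked whether RNA levels in the mutant cells resembled those under DOT1L inhibition.

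Total counts per library were 22372028 to 25657327 in the mutant group and 20540965 to 22873652 in the pinometostat group, within 17779692 to 27599686 for the series. A pair of libraries stood apart. JQ1 replicate 1, which is in neither group, gave 16.5% of its counts to mitochondrially encoded genes, where its 3 fellow replicates gave 3.04% to 3.69%, and mutant replicate 4 had 7.45% against 3.77% to 4.95% in the other mutant libraries. The JQ1 libraries entered neither group mean of the comparison but took part in the filter, the scaling and the shared estimate of spread, so the counts below are given with and without JQ1 replicate 1. Of the neuronal markers for which this line is known, 14 passed the filter and of the kidney developmental regulators 17. Among markers of other cell types, 1 of 12 blood cell genes and 6 of 18 epithelial and fibroblast genes passed, and none of them was called.

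The estimated difference between the mutant and pinometostat libraries was under 1.5-fold for 91.7% of genes. By the same measure the share was 95.1% for mutant minus control and 89.9% for pinometostat minus control, which share the control libraries. Among the genes called, XIST and 5 ribosomal protein genes were lower in the mutant, and MARCKS, LMNB1, DDX6 and GARS were higher. Differences are given as log2 values, mutant minus pinometostat, so that a positive value is higher in the mutant, and come from the fit on 16 libraries, also for genes called only without JQ1 replicate 1. With edgeR's quasi-likelihood test on all 16 libraries, 61 of 17306 genes passed a Benjamini-Hochberg adjusted p of 0.05 (0.352%), 29 higher in the mutant (0.168%) and 32 lower (0.185%), and 3009 had an unadjusted p below 0.05. No gene passed an adjusted p of 0.01. The share of higher calls moved with the scaling: it was 47.5% with TMM factors, 66.2% with the size factors of DESeq2, 72.1% with library size alone, 32.1% with upper-quartile factors and 73.6% with mitochondrially encoded genes left out, and the 61 genes kept their sign in each. Without JQ1 replicate 1 the same test called 1789 of 17590 genes (10.2%), 1263 higher (7.18%) and 526 lower (2.99%), and all 61 genes were called again with the same sign. The median standard error of a log2 difference was 0.17 with that library and 0.14 without it. Below, a gene called only without JQ1 replicate 1 is one not called on 16 libraries, and either fit means these 2. The share called higher rose with level. Without JQ1 replicate 1 it was 0.81% in the lowest of 5 bins of mean level and 17.4% in the highest. The share called lower did not rise, at 2.43% and 2.25% in those bins. Several lists below hold mostly highly expressed genes, and their shares called higher are to be read beside 17.4% as well. A fit on the 8 compared libraries alone called 383 of 16648 genes (2.30%), 233 higher and 150 lower. These are the background for the counts of that fit given for lists below. In 2506 genes (14.5%) the 4 mutant values lay wholly above or below the 4 pinometostat values, 1371 of them higher (7.92%) and 1135 lower (6.56%). Genes named below for the size of their called difference were required to show no overlap, so their separation follows from that choice. The count of 61 also depended on single libraries of the compared groups: with JQ1 replicate 1 still in the fit, leaving out mutant replicates 1 to 4 gave 9, 0, 3 and 1 calls, and leaving out pinometostat replicates 1 to 4 gave 0, 2, 5 and 0. Without JQ1 replicate 1, leaving out any 1 of these 8 gave 798 to 1834 calls, with all 61 genes among them each time; the lowest counts came without pinometostat replicate 1 (798), 2 (899), 4 (849) or 3 (1112).

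Closeness was read from intervals, since a missed threshold does not show that levels are alike. For 8831 genes (51%) the 95% interval of the difference lay within 1.5-fold in either direction, and for 10157 of 17590 (57.7%) without JQ1 replicate 1. With that library kept, the count was 7606 of 17575 genes without mutant replicate 1 and 7779 of 17599 without pinometostat replicate 4, under 50% in both. Among the 11510 genes with a mean of at least 5 CPM (counts scaled to a common library size) over the 8 libraries, 8206 (71.3%) had such an interval. The estimated difference itself was under 1.5-fold for 91.7% of genes, its median size was 0.19, and 276 genes differed by 2-fold or more. Set beside the control libraries, which the direct comparison does not use, the median size of a log2 difference was 0.16 for mutant minus control and 0.23 for pinometostat minus control. These last values share the 4 control libraries and are given only side by side.

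**Figure D1:**
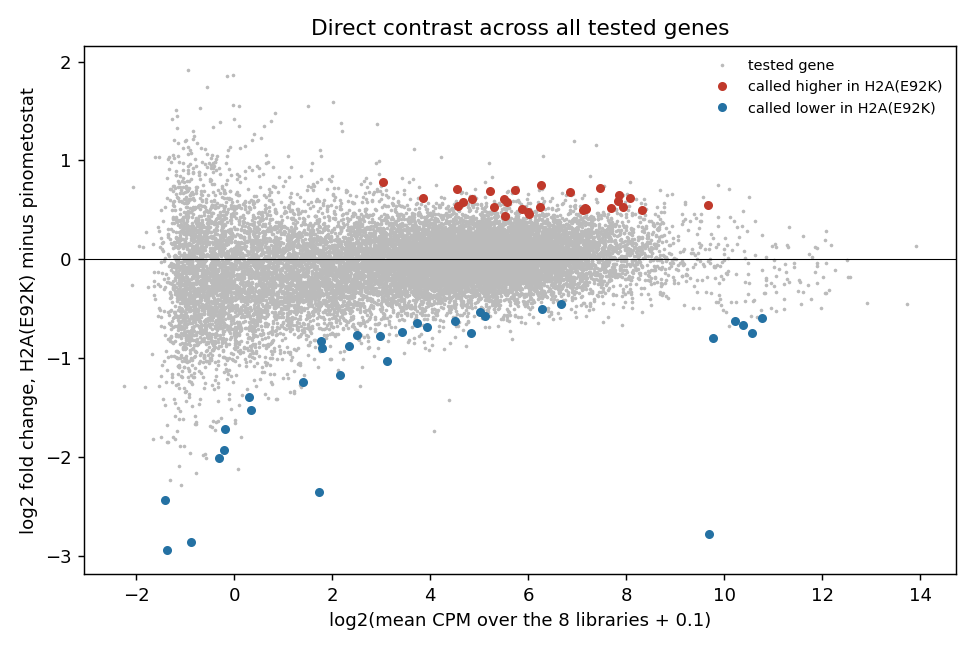
Difference between mutant and pinometostat libraries (log2, mutant minus pinometostat, vertical axis) against the mean level over the 8 libraries (log2 of mean CPM plus 0.1, horizontal axis) for the 17306 tested genes. The 29 genes called higher (red) lie between 0.44 and 0.78, and the 32 called lower (blue) lie below 0.

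DOT1L mRNA did not separate the groups. DOT1L (ENSG00000104885, chr19:2164149-2232578 on the plus strand in GRCh38) was at 60, 66.2, 83.1 and 66 CPM in mutant replicates 1 to 4 and at 67, 81.7, 58 and 78.7 CPM in pinometostat replicates 1 to 4, which overlap. Its log2 difference was -0.05 ± 0.15 (SE), with a 95% interval of -0.37 to 0.27 that lies inside 1.5-fold. Of 12 tested genes of DOT1L and its partners none was called with or without JQ1 replicate 1, 9 had an interval within 1.5-fold, and the median was -0.10 beside -0.03 over all genes. NPM1, a nucleolar histone chaperone, had an interval of -0.25 to 0.29, and TRRAP, a scaffold of acetyltransferase complexes, one of -0.32 to 0.21. MLLT10, which encodes the AF10 cofactor of DOT1L, was at -0.32 ± 0.15 with an adjusted p of 0.272.

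Some genes of the pathway around H3K79 methylation and H2B ubiquitin were called higher in the mutant once JQ1 replicate 1 was left out. Of 18 tested genes of the H3K79 and H2B ubiquitin pathway none was called on 16 libraries. Without that library 6 were called higher (33.3%) and 1 lower (5.56%), beside 7.18% and 2.99% of all genes. The 8 compared libraries alone gave 2 higher and 0 lower. An interval within 1.5-fold was found for 13, and the median was 0.18. CTR9, a subunit of the PAF1 elongation complex, was at 78.1, 78.5, 79.5 and 71.4 CPM in the mutant libraries and 50.8, 58.2, 49.7 and 57.8 CPM in the pinometostat libraries. These values did not overlap, and the log2 difference of 0.51 ± 0.12 had an adjusted p of 0.0624 with and 0.00303 without JQ1 replicate 1. RTF1, which works with the PAF1 complex, was at 0.52 ± 0.26 with adjusted p-values of 0.306 and 0.0044. USP49, a deubiquitinase for H2B, pointed the other way at -0.58 ± 0.14, with adjusted p-values of 0.0624 and 0.0165. RNF20, one of the H2B ubiquitin ligases, did not pass in either fit, at 0.29 ± 0.16, and WAC, its partner, had an interval of -0.19 to 0.24.

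In the list of acidic patch binding proteins used here, PSIP1 was higher in the mutant. Whether its product binds the patch was not tested. PSIP1 encodes a reader of methylated H3 that tethers complexes to active genes, and is at ENSG00000164985, chr9:15464066-15511019 on the minus strand. Its level was 263, 285, 267 and 286 CPM in the mutant libraries and 178, 193, 188 and 171 CPM in the pinometostat libraries, against 228, 221, 235 and 248 CPM in the control libraries. The mutant values were all above the pinometostat values, by 1.51-fold, at a log2 difference of 0.59 ± 0.12 and an adjusted p of 0.0485. Of 33 genes of the list 1 was called higher, beside 0.168% of all genes. An interval within 1.5-fold was found for 23, and the median was 0.10. The 8 compared libraries alone gave 2 higher and 0 lower. In the highest of 5 bins of mean level the fit without JQ1 replicate 1 called 17.4% higher. Beside 7.18% higher and 2.99% lower over all genes, 8 genes of the list (24.2%) were called higher and 0 lower in that fit. HMGN5, a nucleosome-binding protein, was one of those 8: its values were 89, 93.7, 87.9 and 155 CPM in the mutant and 47.1, 54.9, 54.6 and 49.4 CPM under pinometostat, with the highest in mutant replicate 4. Its log2 difference of 1.05 ± 0.42 had an adjusted p of 0.207 on 16 libraries. RBBP5, a subunit of H3K4 methyltransferases, had an interval of -0.20 to 0.20, and HMGN2 one of -0.22 to 0.23.

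HOX genes and their cofactors are widely used readouts of DOT1L activity in leukaemia. In these kidney cells the summed level of the 36 tested HOX genes was 755, 773, 763 and 768 CPM in the mutant libraries, 685, 701, 631 and 672 CPM in the pinometostat libraries and 746, 759, 755 and 754 CPM in the control libraries. The mutant sums lay above every pinometostat sum. HOXA10 was at 51.1, 57.4, 55.4 and 48.3 CPM in the mutant and 37, 42.8, 39.2 and 37.6 CPM under pinometostat, without overlap, with a log2 difference of 0.44 ± 0.09 and an adjusted p of 0.0485. It was the only one of the 36 tested HOX genes called on 16 libraries, beside 0.168% of all genes called higher. On the 8 compared libraries alone 1 HOX gene was called higher and 0 lower. Without JQ1 replicate 1, 7 of 37 were called higher (18.9%) and 0 lower, beside 7.18% and 2.99% of all genes. HOXA9, which overlaps HOXA10 in the annotation, was at 45.4, 45.4, 44.7 and 37.7 CPM and 38.3, 36, 37.8 and 36.7 CPM, where mutant replicate 4 was below the highest pinometostat value; its difference was 0.22 ± 0.11 with an adjusted p of 0.305. MEIS1, a DNA-binding partner of HOX proteins, was at 16.4, 16.8, 16.6 and 21.1 CPM and 14.5, 14.6, 13.7 and 15.6 CPM. Its values did not overlap, yet the difference of 0.28 ± 0.11 had an adjusted p of 0.192. Of 11 TALE cofactors none was called on 16 libraries, and MEIS3 was the 1 called without JQ1 replicate 1, at 0.37. HOXC4 had the interval of the HOX genes that stayed closest to no difference, -0.12 to 0.25, judged by its larger absolute bound.

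XIST, the long non-coding RNA of X-chromosome inactivation, differed most among genes of at least 5 CPM. XIST (ENSG00000229807, chrX:73820651-73852753 on the minus strand) averaged 210.4 ± 72.7 CPM (SD, n = 4) in the mutant libraries, 1442 ± 360.0 CPM under pinometostat and 294 ± 223 CPM in the control libraries. The mutant and pinometostat values did not overlap, and pinometostat was 6.85-fold higher, at a log2 difference of -2.78 ± 0.44 and an adjusted p of 0.0238. TSIX, its antisense partner at ENSG00000270641, chrX:73792205-73829231 on the plus strand, was at 0.743, 0.841, 1.68 and 0.939 CPM and 4.21, 6.23, 5.2 and 5.85 CPM, with -2.35 ± 0.34 and an adjusted p of 0.0185. The annotated genes share part of their span on opposite strands, and the strand setting of the counting is not given in the sources used here, so reads of XIST and TSIX cannot be told apart in the shared part. FTX and JPX, non-coding neighbours that act on XIST, were at -0.76 ± 0.27 and -0.17 ± 0.13; neither was called on 16 libraries, and FTX was called without JQ1 replicate 1 with an adjusted p of 0.0378.

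Several ribosomal protein mRNAs were lower in the mutant than under pinometostat. Many of these mRNAs begin with a run of pyrimidines, the terminal oligopyrimidine tract through which growth signalling controls their translation. The RefSeq start regions of the 5 ribosomal protein genes called lower are shown for that run, from 60 bases before to 20 bases after the annotated start, 5′ to 3′ on the gene's strand, with the longest run of C and T near the start in capitals (GRCh38.p14).
RPS12: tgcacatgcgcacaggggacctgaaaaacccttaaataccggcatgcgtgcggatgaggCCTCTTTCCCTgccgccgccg
RPS13: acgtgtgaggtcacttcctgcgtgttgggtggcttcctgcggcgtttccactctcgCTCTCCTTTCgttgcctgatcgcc
RPL26: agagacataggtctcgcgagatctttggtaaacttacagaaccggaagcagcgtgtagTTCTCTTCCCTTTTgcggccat
RPS27: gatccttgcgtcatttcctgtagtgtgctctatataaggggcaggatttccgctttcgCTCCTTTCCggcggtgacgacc
RPS10: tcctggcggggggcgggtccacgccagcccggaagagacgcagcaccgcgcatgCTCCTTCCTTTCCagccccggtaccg
They lie at chr6:132814509-132814588 (plus strand) for RPS12, chr11:17077648-17077727 (minus strand) for RPS13, chr17:8383174-8383253 (minus strand) for RPL26, chr1:153990702-153990781 (plus strand) for RPS27 and chr6:34426050-34426129 (minus strand) for RPS10. A run of at least 8 C or T on the gene's strand overlapping the window from 10 bases before to 20 after the start was found in 53 of 63 (84.1%) ribosomal protein promoters of the table, and in 2033 of 12242 (16.6%) promoters of all tested genes. A match is a description of these letters only.

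RPS12, a small-subunit protein, was at 1192, 1178, 971 and 1219 CPM in mutant replicates 1 to 4 and 1816, 1852, 2032 and 1931 CPM in pinometostat replicates 1 to 4. RPS27 was at 728, 666, 566 and 605 CPM and 1035, 1132, 1145 and 1141 CPM. RPL26, a large-subunit protein, was at 1148, 1198, 818 and 961 CPM and 1662, 1703, 1665 and 1509 CPM. In each of the 3 every pinometostat value was above every mutant value, as their choice by size required, and mutant replicate 3 was the lowest. The log2 differences were -0.74 ± 0.13 for RPS12 (adjusted p 0.0249), -0.80 ± 0.14 for RPS27 (0.0277) and -0.66 ± 0.13 for RPL26 (0.0409). RPS13 and RPS10 were called as well, at -0.62 ± 0.12 and -0.60 ± 0.12. Of 79 tested cytosolic ribosomal protein genes 5 were called lower and none higher on 16 libraries, and 26 lower and none higher without JQ1 replicate 1 (backgrounds of 0.185% and 2.99%). The 8 compared libraries alone gave 11 lower and none higher, beside 150 lower and 233 higher of all 16648 genes tested in that fit. The median was -0.26, 76 had a negative value, and 34 had an interval within 1.5-fold; RPS2 (-0.24 to 0.22) and RPL3 (-0.27 to 0.18) were closest. Near-identical pseudogenes could share reads with many of these genes, and RPS27AP16, a processed copy of RPS27A, was itself called at -0.64 ± 0.14.

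The summed ribosomal protein level was 166366, 160613, 131470 and 189618 CPM in mutant replicates 1 to 4, 185223, 188709, 209632 and 195910 CPM in pinometostat replicates 1 to 4 and 127841, 146254, 164190 and 161438 CPM in control replicates 1 to 4. Mutant replicate 4 lay within the pinometostat range, and the other mutant libraries lay below it. Against the control libraries, RPS12 was at 0.07 in the mutant and 0.82 under pinometostat, and RPS27 at -0.06 and 0.74. Mitochondrial ribosomal proteins, made from other genes, had a median of -0.03, and 64 of 78 intervals lay within 1.5-fold. None of them was called on 16 libraries, and 4 higher and 2 lower without JQ1 replicate 1, near or below the 7.18% and 2.99% of all genes. Among 42 translation factors none was called on 16 libraries, and 3 higher and 1 lower on the 8 compared libraries alone. Without JQ1 replicate 1, the highest of 5 bins of mean level had 17.4% called higher and 2.25% lower. Of the translation factors 9 were called higher (21.4%) and 3 lower (7.14%) in that fit. EEF1B2 at -0.49 ± 0.13 and EEF1A1 at -0.45 ± 0.16 were among the lower and EIF3B at 0.46 ± 0.11 among the higher. EIF5B, a GTPase of subunit joining, was higher at 1.15 ± 0.42 and was called only without that library, with 169, 174, 208 and 372 CPM in the mutant and 104, 104, 103 and 104 CPM under pinometostat; mutant replicate 4 was far above the rest.

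Host genes of small nucleolar RNAs, whose introns hold the guides for rRNA modification, had the lowest median of the lists, -0.35. Their summed level was 3079, 2979, 2654 and 3761 CPM in the mutant libraries and 4452, 3837, 4233 and 3828 CPM in the pinometostat libraries, with each mutant sum below each pinometostat sum. SNHG8 was at 29.4, 28.5, 28.9 and 25.4 CPM and 41.6, 40.7, 41.6 and 42.6 CPM, and was called at -0.57 ± 0.11 with an adjusted p of 0.0409. Of 28 host genes it was the only one called on 16 libraries, beside 0.185% of all genes called lower. On the 8 compared libraries alone 5 host genes were lower and none higher. Beside 2.99% lower and 7.18% higher over all genes, 7 were lower (25%) and none higher without JQ1 replicate 1. GAS5, a host gene whose RNA starts with a pyrimidine tract, was at 568, 558, 479.8 and 780.2 CPM and 947, 771, 859 and 772 CPM, which overlapped; it passed only without that library (-0.49 ± 0.17, adjusted p 0.155 with it and 0.0342 without). ZBTB37, a zinc finger gene whose first bases overlap GAS5 on the other strand, was called at -0.73 ± 0.15, and reads in the overlap cannot be told apart.

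Replication-dependent histone genes were low in all libraries, and 2 H2A genes were lower in the mutant than in both other groups. HIST2H2AA4 (ENSG00000272196, chr1:149851061-149851624 on the plus strand) was at 0.949, 1.64, 2.09 and 1.34 CPM in the mutant libraries, 3.18, 2.9, 4.15 and 4.02 CPM under pinometostat and 4.51, 4.01, 4.23 and 2.85 CPM in the control libraries. Every mutant value was below every pinometostat and control value, and the difference from pinometostat was -1.23 ± 0.25 with an adjusted p of 0.0424. HIST2H2AA3, its near-identical neighbour, was at -1.39 ± 0.28 with an adjusted p of 0.0409; reads could be shared between this pair, and the counts do not separate the cells' own H2A from a vector copy of like sequence. Against the control libraries HIST2H2AA4 was at -1.37 in the mutant and -0.13 under pinometostat. Of 81 listed genes 36 passed the filter, so the rest are not described by these counts. On 16 libraries 2 were called lower, beside 0.185% of all genes, and none higher, as on the 8 compared libraries alone, where 31 were tested. Without JQ1 replicate 1, 0 were called higher and 4 lower (11.1%), beside 7.18% and 2.99% of all genes. Summed levels were 172, 156, 128 and 165 CPM in the mutant libraries, 194, 185, 213 and 193 CPM under pinometostat and 159, 163, 183 and 175 CPM in the control libraries. Replacement histones showed no call on 16 libraries: H2AFX was at 0.43 ± 0.14 (adjusted p 0.14), H2AFZ at -0.14 ± 0.13, and H3F3B had an interval of -0.12 to 0.23.

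**Figure D2:**
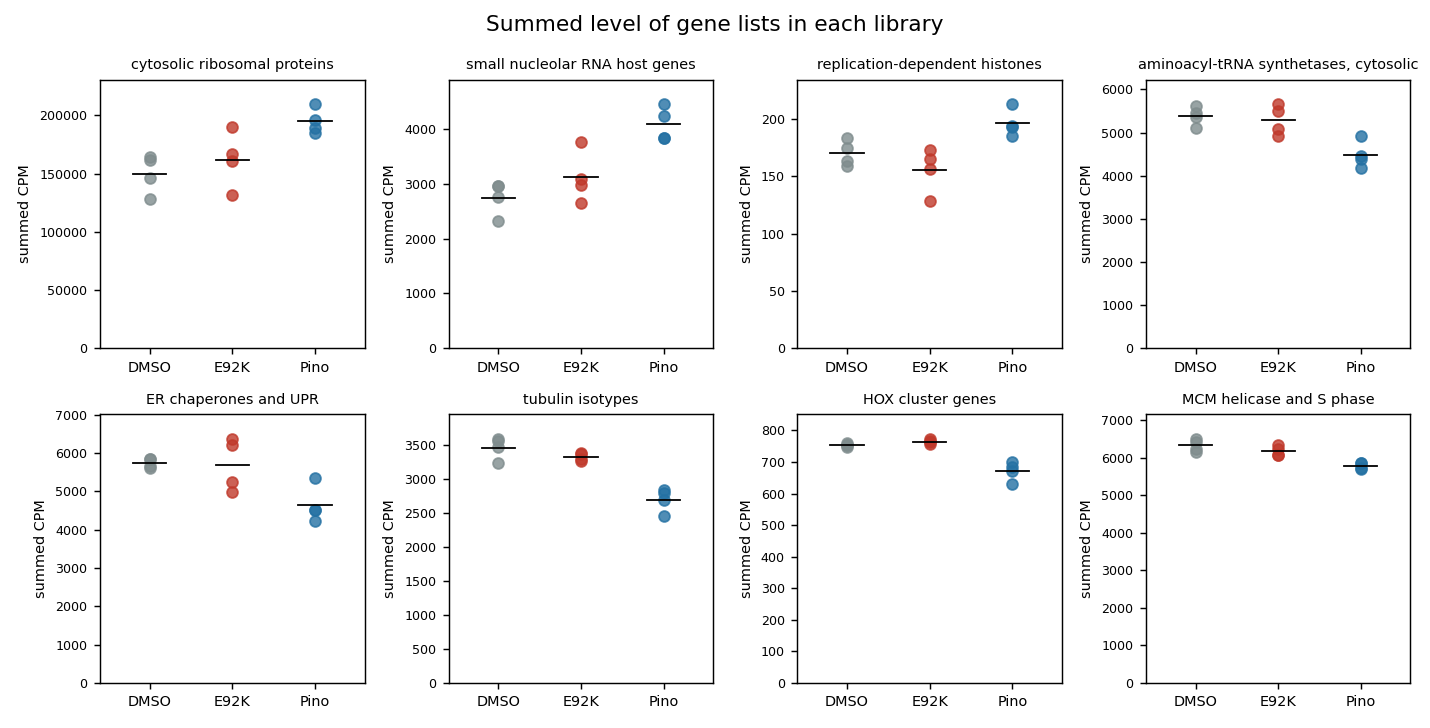
Summed CPM of 8 gene lists (vertical axes, starting at 0) in each control, mutant (E92K) and pinometostat (Pino) library; points are libraries and bars the group means. Pinometostat sums lie above the mutant sums for host genes of small nucleolar RNAs and for histones, and below them for tubulins, HOX and S-phase genes.

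Of the 32 genes called lower in the mutant 16 were protein coding, 5 were transcribed unprocessed pseudogenes, 3 lincRNAs and 2 antisense genes, and the rest had other annotated types or none. ZNF891, a zinc finger gene at ENSG00000214029, chr12:133106817-133130473 on the minus strand, was at 5.49, 5.43, 5.94 and 6.26 CPM in the mutant and 9.76, 9.44, 9.8 and 10.4 CPM under pinometostat. Its values did not overlap, at -0.77 ± 0.13 and an adjusted p of 0.0249. CLUHP3, a pseudogene, was at -1.03 ± 0.18, KIF27, a kinesin gene, at -0.77 ± 0.15, TRIM52 at -0.68 ± 0.14 and JRK at -0.75 ± 0.15, each with an adjusted p between 0.0249 and 0.0465. JRK in mutant replicate 3 was at 26.9 CPM, apart from 19.2 to 19.3 in the other mutant libraries. By annotated type, 5 of 256 transcribed unprocessed pseudogenes were called lower and none higher, beside 0.185% and 0.168% of all genes. Their median was -0.29. Without JQ1 replicate 1, 2 were called higher (0.78%) and 34 lower (13.3%), beside 7.18% and 2.99% of all genes. The median was -0.20 for 799 lincRNAs, -0.21 for 1049 antisense genes and -0.01 for 13972 protein-coding genes, of which 29 were called higher and 16 lower. Many pseudogenes could share reads with their parent genes. Of 211 zinc finger genes on chromosome 19, ZNF266 was called lower (-0.53 ± 0.10) and none higher, beside 0.185% and 0.168% of all genes. Their median was -0.19. Without JQ1 replicate 1, 7 of 212 were higher (3.30%) and 15 lower (7.08%), and 3 higher and 4 lower on the 8 compared libraries alone.

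These types also differ in level and base composition, which moved with the result. With genes cut into 5 equal bins by mean level, the median difference was -0.19 in the lowest bin and 0.06 in the highest. With 5 bins by GC content of the exons it was -0.09 and 0.07. Their part in the differences between gene types was not tested. Nuclear-retained transcripts, an RNA-quality list, had a median of -0.24, with none called on 16 libraries and 1 lower on the 8 compared libraries alone. Beside 7.18% higher and 2.99% lower over all genes, 1 of these transcripts was higher and 5 lower (17.9%) without JQ1 replicate 1. MALAT1, the best known of them, was at 80.2, 116, 142 and 345 CPM in the mutant and 68, 78.8, 61.8 and 89.3 CPM under pinometostat, and mutant replicate 4 was the highest.

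All 29 genes called higher in the mutant were protein coding, and they had varied roles. MARCKS, an actin-binding substrate of protein kinase C at ENSG00000277443, chr6:113857362-113863471 on the plus strand, was at 209, 225, 223 and 231 CPM in the mutant, 128, 148, 131 and 129.6 CPM under pinometostat and 201, 177, 201 and 227 CPM in the control libraries. Mutant values were all above pinometostat values, by 1.65-fold, at 0.73 ± 0.10 and an adjusted p of 0.0185. LMNB1, the lamin B1 of the nuclear envelope at ENSG00000113368, chr5:126776623-126837020 on the plus strand, was at 121, 146, 157 and 147 CPM and 93.4, 94.2, 79.9 and 89.1 CPM. It showed no overlap either, at 0.68 ± 0.11 and an adjusted p of 0.0232. DDX6, a helicase of mRNA decay bodies, was at 84.8, 93.5, 96.2 and 108 CPM and 47.8, 64.5, 53.3 and 61.3 CPM, at 0.75 ± 0.16 and an adjusted p of 0.0485. KHDRBS1, the splicing regulator Sam68, was at 288, 318, 339 and 361 CPM and 203, 215, 217 and 214 CPM, at 0.62 ± 0.10 and an adjusted p of 0.0249. The choice of these 4 genes required that the groups did not overlap. In all 4 genes the control libraries lay nearer to the mutant than to the pinometostat libraries by group mean.

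GAR1, a core protein of box H/ACA small nucleolar ribonucleoproteins, was called at 0.70 ± 0.14, with 56.1, 61.4, 72.7 and 72.4 CPM in the mutant and 41.5, 41.5, 38.2 and 40.7 CPM under pinometostat. WIPF3, which binds actin regulators of the WASP family, had the largest positive value, 0.78 ± 0.14, at 8.42, 10.3, 11 and 11.4 CPM and 6.09, 5.51, 5.7 and 6.61 CPM. NUDT19, a hydrolase of coenzyme A in peroxisomes, was at 0.71 ± 0.11 and had the lowest adjusted p of the higher genes with MARCKS, 0.0185. FAM98B, a subunit of the tRNA ligase complex, was at 0.69 ± 0.12, TCF7, a Wnt-responsive transcription factor, at 0.62 ± 0.12, and EFHD1, a mitochondrial calcium-binding protein, at 0.61 ± 0.12. The smaller called differences included SYNCRIP (0.50) and HNRNPH3 (0.53), both RNA-binding proteins, ANP32E (0.52), a chaperone that removes H2A.Z, and SND1 (0.50), a nuclease of RNA regulation. These 4 were named after their values were seen.

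**Figure D3:**
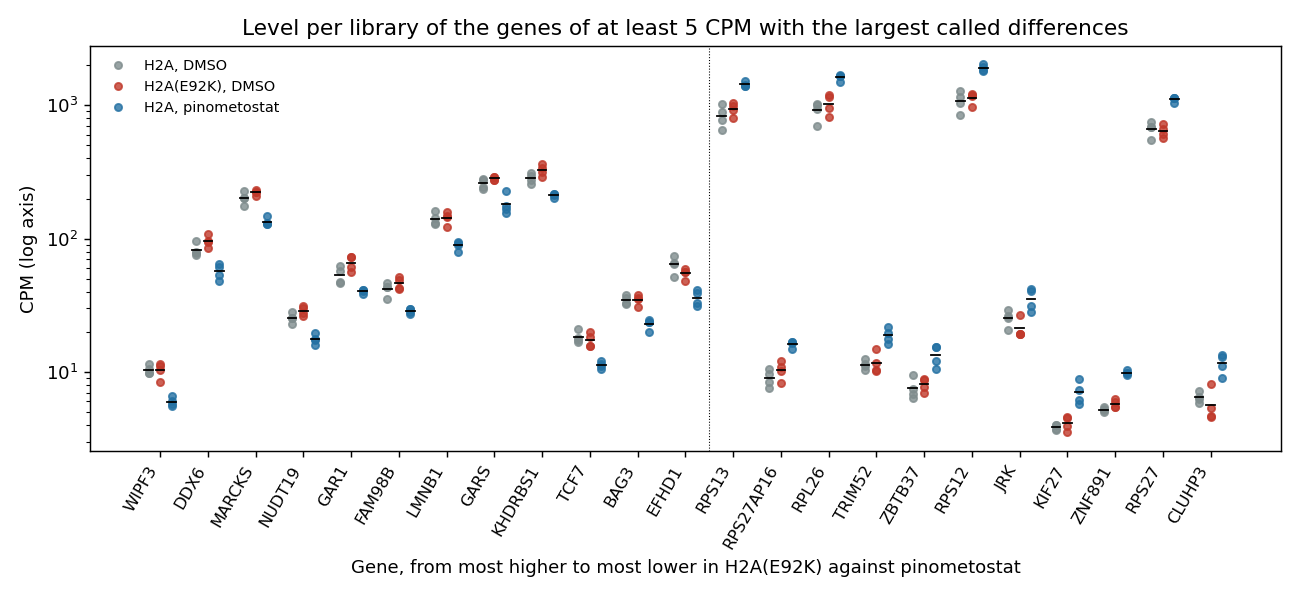
CPM (log axis) in each control, mutant and pinometostat library for the 23 genes other than XIST of at least 5 CPM with the largest called differences, ordered from most higher to most lower in the mutant; points are libraries and bars group means. Left of the dotted line all pinometostat values lie below the mutant values, and right of it all lie above them, because genes were chosen to have no overlap.

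Each of the 24 genes of at least 5 CPM with the largest called differences lay further from the control libraries under pinometostat than in the mutant. For the 12 positive genes among them, mutant minus control ranged from -0.22 to 0.30 and pinometostat minus control from -0.83 to -0.39. For the 12 negative genes, mutant minus control ranged from -0.48 to 0.19 and pinometostat minus control from 0.49 to 2.29. Both sets of values use the same 4 control libraries, and the genes were chosen by the direct difference, so the ranges are a description. HIST2H2AA4, under 5 CPM, went the other way, at -1.37 and -0.13. EFHD1 was below the control in both, at -0.22 and -0.83, and XIST was at -0.48 and 2.29. PCDH19, a protocadherin that was called only without JQ1 replicate 1, showed the other pattern, at -1.04 in the mutant and 0.05 under pinometostat, with 4.38, 4.13, 4.22 and 2.64 CPM against 7.74, 8.37, 6.5 and 10 CPM and 8.6, 9.16, 6.79 and 7.02 CPM in the control libraries.

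**Figure D4:**
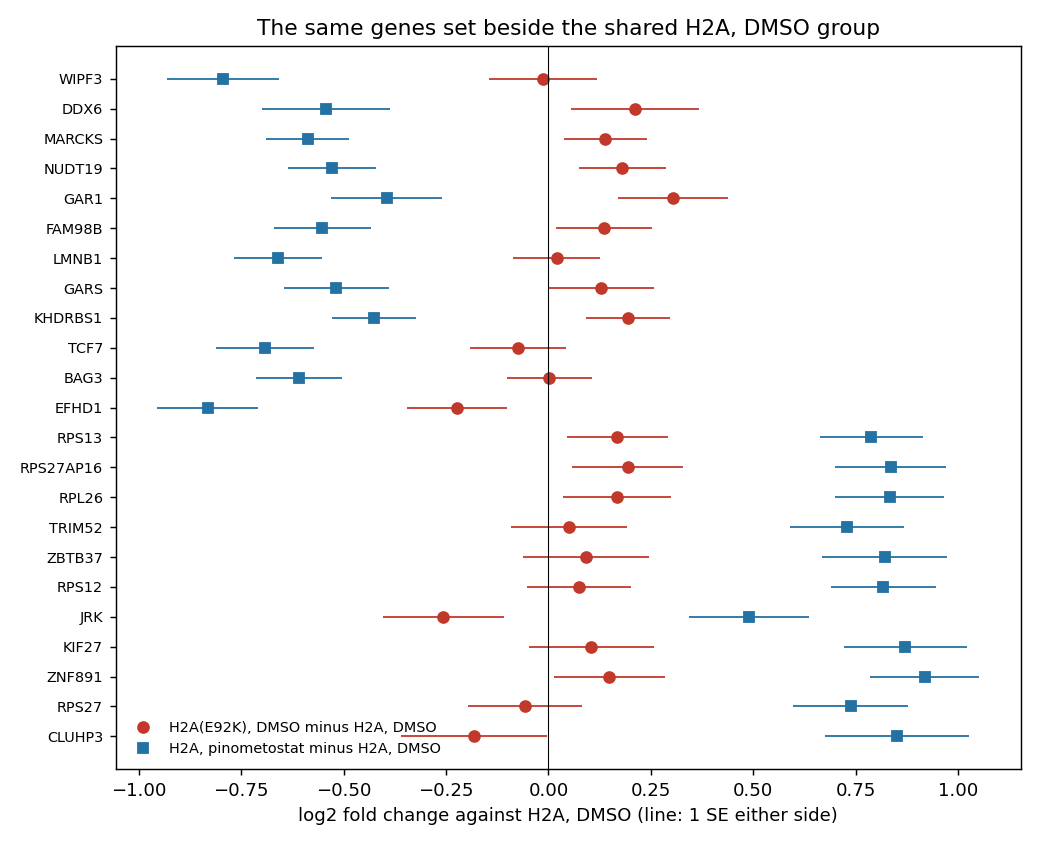
Log2 difference from the 4 control libraries for the same 23 genes, in the mutant (red circles) and under pinometostat (blue squares), with lines of 1 SE either side. The squares lie left of 0 for the 12 upper genes and right of 0 for the 11 lower genes, and most circles lie closer to 0.

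Several genes of amino acid supply and tRNA charging were higher in the mutant. GARS, the glycyl-tRNA synthetase at ENSG00000106105, chr7:30594681-30634033 on the plus strand, was at 276, 292, 277 and 290.2 CPM in the mutant and 226, 176, 166 and 155 CPM under pinometostat, without overlap, at 0.65 ± 0.13 and an adjusted p of 0.0409. PHGDH, the first enzyme of serine synthesis at ENSG00000092621, chr1:119659798-119744215 on the plus strand, was at 913, 948, 941 and 1049 CPM and 687, 661, 638 and 652 CPM, at 0.55 ± 0.10 and an adjusted p of 0.0317. Of 20 cytosolic aminoacyl-tRNA synthetases 1 was called higher and none lower on 16 libraries, and 13 higher and none lower without JQ1 replicate 1 (backgrounds of 0.168% and 7.18%), with a median of 0.32, the highest of the lists in this comparison. On the 8 compared libraries alone 3 synthetases were called higher and none lower. Their summed level was 5505, 5659, 5081 and 4925 CPM in the mutant libraries, 4914, 4394, 4446 and 4170.4 CPM in the pinometostat libraries and 5616, 5372, 5107 and 5446 CPM in the control libraries, with each mutant sum above each pinometostat sum. AARS was at 0.56 ± 0.12 and YARS at 0.44 ± 0.12, while QARS (-0.18 to 0.24) and RARS (-0.17 to 0.31) had intervals within 1.5-fold and IARS was at -0.03. Of 36 genes of the ATF4 response to amino acid shortage 1 was called higher and none lower, beside 0.168% and 0.185% of all genes. Their median was 0.24. Without JQ1 replicate 1, 8 were called higher (22.2%) and none lower, beside 17.4% higher in the highest of 5 bins of mean level. On the 8 compared libraries alone 4 were called higher and none lower. Their summed level overlapped, at 7660, 8080, 7514 and 8490 CPM in the mutant libraries and 7781, 5943, 6646 and 5841 CPM in the pinometostat libraries. ASNS, the asparagine synthetase, was at 0.56 ± 0.15, PCK2 at 0.55 ± 0.13, and ATF4 itself had an interval of -0.12 to 0.33.

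The C/EBP-ATF response element (CARE) is the site through which ATF4 acts, searched here as TGATGNAA on both strands. It was found in 6 of 16 (37.5%) synthetase promoters of 300 bases and in 198 of 12242 (1.62%) of all tested genes. Matches that lie before the start are printed to show a synthetase that differed, AARS, one that did not, IARS, and ASNS, with the match in capitals as it reads on the gene's strand.
AARS: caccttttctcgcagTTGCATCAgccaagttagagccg
IARS: cgcattttcagcgcgTTGCATCAcctcc
ASNS: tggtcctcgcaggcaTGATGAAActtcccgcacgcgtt
They lie at chr16:70289671-70289708 (minus strand) for AARS, chr9:92293698-92293725 (minus strand) for IARS and chr7:97872454-97872491 (minus strand) for ASNS, in GRCh38.p14. Both AARS and IARS hold the same match on the other strand, so its presence did not separate them.

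Some chaperones of the endoplasmic reticulum (ER) and the cytosol were also called higher. HSPA5, the main ER chaperone BiP, was at 688, 713, 477 and 538 CPM in the mutant libraries and 308, 383, 455 and 379 CPM in the pinometostat libraries. All mutant values were above all pinometostat values, at 0.66 ± 0.15, with an adjusted p of 0.057 on 16 libraries and 0.00339 without JQ1 replicate 1. Of 26 ER chaperone and unfolded protein response genes none was called on 16 libraries, with a median of 0.18. Without JQ1 replicate 1, 8 were called higher (30.8%) and 0 lower, beside 7.18% and 2.99% of all genes. The 8 compared libraries alone gave 2 higher and 0 lower. Summed levels of the ER list overlapped, at 6370, 6201, 4991 and 5238 CPM in the mutant libraries and 4237, 4508, 5348 and 4508 CPM in the pinometostat libraries. PDIA3 was at 0.58 ± 0.12, HSP90B1 at 0.45 ± 0.12 and CALR at 0.39 ± 0.12, while SYVN1, an ER ubiquitin ligase, had an interval of -0.12 to 0.30. Of 26 cytosolic heat shock genes BAG3, a co-chaperone of HSP70, was called higher on 16 libraries at 0.61 ± 0.11 with an adjusted p of 0.0249, and none lower. On 16 libraries 0.168% of all genes were called higher. Without JQ1 replicate 1, 6 heat shock genes were called higher (23.1%) and none lower. In the highest of 5 bins of mean level that fit called 17.4% higher. On the 8 compared libraries alone 1 heat shock gene was called higher and none lower. Summed heat shock levels also overlapped, at 8545, 8256, 7781 and 7547 CPM in the mutant libraries and 6541.5, 7517, 8149 and 7775 CPM in the pinometostat libraries. HSPA8, the constitutive HSP70, was at -0.46 ± 0.55 and did not pass in either fit.

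The ER stress element, to which ATF6 and the general factor NF-Y bind, was searched as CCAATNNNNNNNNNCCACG on both strands. It was found in 7 of 25 (28%) promoters of the ER list and in 14 of 12242 (0.114%) of all tested genes. The matches of 4 genes that were called without JQ1 replicate 1 are shown with 15 bases on either side, the match in capitals, read on the gene's strand.
HSPA5: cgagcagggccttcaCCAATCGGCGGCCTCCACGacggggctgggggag
HSP90B1: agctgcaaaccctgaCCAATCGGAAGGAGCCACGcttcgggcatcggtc
CALR: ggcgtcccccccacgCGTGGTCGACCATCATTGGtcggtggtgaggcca
CRELD2: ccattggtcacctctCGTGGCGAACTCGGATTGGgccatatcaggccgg
They lie at chr9:125241376-125241424 (minus strand) for HSPA5, chr12:103930201-103930249 (plus strand) for HSP90B1, chr19:12938369-12938417 (plus strand) for CALR and chr22:49918539-49918587 (plus strand) for CRELD2. CANX, XBP1 and ERO1B also held a match and were at 0.13, 0.27 and -0.47, none of them called.

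Some tubulins and chromatin remodellers were called higher in the mutant without JQ1 replicate 1, and none on 16 libraries. The summed tubulin level was 3300.4, 3388, 3366 and 3268 CPM in the mutant libraries and 2459, 2690.1, 2788 and 2841 CPM in the pinometostat libraries, which did not overlap, and 3592, 3231, 3472 and 3554 CPM in the control libraries. Of 15 isotypes 7 were called higher (46.7%) and none lower without JQ1 replicate 1, among them TUBB4A (0.68 ± 0.17) and TUBB4B (0.54 ± 0.19). Over all genes that fit called 7.18% higher and 2.99% lower. The 8 compared libraries alone gave 3 of 14 isotypes higher and none lower. TUBA1A had an interval of -0.18 to 0.25. Of 48 remodellers 3 were higher and none lower on the 8 compared libraries alone, and the median was 0.16. Without JQ1 replicate 1, 13 were higher (27.1%) and none lower, beside 17.4% higher in the highest of 5 bins of mean level. SMARCA4, the BRG1 ATPase, was at 0.51 ± 0.22 with adjusted p-values of 0.246 and 0.0333, and BAZ1A at 0.57 ± 0.28. ARID2 had an interval of -0.24 to 0.23. Collagens had 6 higher (23.1%) and none lower of 26 without JQ1 replicate 1, with COL4A2 at 0.49 ± 0.12. The 8 compared libraries alone gave 1 higher and none lower. Of the kidney developmental regulators 4 (23.5%) and of the neuronal markers 3 (21.4%) were called higher without JQ1 replicate 1, and 0 lower. The 8 compared libraries alone gave 0 and 1 higher, and 0 lower. The medians were 0.21 and 0.04. NEFM was at 0.84 ± 0.28, RBFOX3 at 0.65 ± 0.29 and GATA3 at 0.49 ± 0.16, each called without JQ1 replicate 1 but not on 16 libraries. Of the 14 neuronal markers 7 had a negative value, down to -0.58.

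Cell cycle genes were mostly close. Of 47 S-phase genes none was called on 16 libraries, and 1 higher and 0 lower on the 8 compared libraries alone. An interval within 1.5-fold was found for 39, and the median was 0.07. Beside 7.18% higher and 2.99% lower over all genes, 9 were higher (19.15%) and 0 lower without JQ1 replicate 1. In the highest of 5 bins of mean level that fit called 17.4% higher. PCNA, the sliding clamp, had an interval of -0.20 to 0.26, and CLSPN, a checkpoint adaptor called higher without that library, was at 0.72 ± 0.33. Of 42 mitotic genes 11 were called higher (26.2%) and 0 lower without JQ1 replicate 1, with TOP2A at 0.48 ± 0.21 and UBE2C at 0.47 ± 0.20. The 8 compared libraries alone gave 3 higher and 0 lower. Intervals lay within 1.5-fold for 27 of the mitotic genes. Nucleolar genes of ribosome assembly had a median of 0.13 and 28 of 38 intervals within 1.5-fold. Without JQ1 replicate 1, 9 were higher (23.7%) and 0 lower, NCL, the nucleolin gene, among them at 0.64 ± 0.15. The 8 compared libraries alone gave 1 higher and 0 lower.

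Among regulators of transcription elongation, on which BET proteins and DOT1L meet, calls went both ways without JQ1 replicate 1 and none was made on 16 libraries. Of 31 genes 6 higher (19.4%) and 2 lower (6.45%) passed, beside 7.18% and 2.99% of all genes, and 19 had an interval within 1.5-fold. The 8 compared libraries alone gave 1 higher and 1 lower. NELFA, a subunit of the pausing factor NELF, was at 0.58 ± 0.14, while CCNT1, the cyclin of P-TEFb, was at -0.59 ± 0.26. HEXIM1, the P-TEFb inhibitor, was at 36, 35.2, 41.3 and 40.4 CPM in the mutant and 28.5, 34.1, 28.3 and 31.8 CPM under pinometostat, at 0.32 ± 0.17, with adjusted p-values of 0.359 and 0.0386. MYC was at 219, 202, 147 and 64.6 CPM and 132, 196, 170.4 and 191 CPM, where mutant replicate 4 was the lowest of the 8. Its difference of -0.12 had a 95% interval of -0.91 to 0.67, too wide to place within 1.5-fold. None of 14 genes of the MYC network was called in either fit, and MAX, the partner of MYC, had an interval of -0.12 to 0.30.

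The remaining lists had no call on 16 libraries, apart from genes that span over 400 kilobases, where 3 of 388 were called higher (SND1, BABAM2 and GMDS) and none lower, beside 0.168% and 0.185% of all genes. Without JQ1 replicate 1, 14 of 394 long genes were called higher (3.55%) and 7 lower (1.78%), below the 7.18% and 2.99% of all genes. The 8 compared libraries alone gave 6 higher and 2 lower of 371. Intervals lay within 1.5-fold for 13 of 14 SR splicing factors, 21 of 30 genes of cholesterol synthesis, 45 of 66 nuclear genes of the respiratory chain, 26 of 39 genes of hypoxia and glycolysis and 20 of 31 targets of p53. NDUFA10, a subunit of complex I, had an interval of -0.18 to 0.18, MDM2, the ubiquitin ligase of p53, one of -0.16 to 0.23, SQLE, an enzyme of cholesterol synthesis, one of -0.28 to 0.19 and LDHA, the lactate dehydrogenase, one of -0.32 to 0.23. The shares were lower for 21 of 41 immediate-early genes, 11 of 25 mesenchymal genes, 5 of 11 growth-arrest genes, 9 of 25 interferon-stimulated genes and 5 of 18 protocadherins. Medians of these 10 lists ran from -0.18 for protocadherins to 0.24 for growth-arrest genes. Without JQ1 replicate 1 between 1 and 4 members of each were called, beside 7.18% higher and 2.99% lower over all genes, and with calls this few nothing is read from the lists. The members called include BAX (0.38 ± 0.12), FOSL1 (0.68 ± 0.22) and VIM (0.51 ± 0.17) higher and HSD17B7 (-0.54 ± 0.16) and BST2 (-0.61 ± 0.18) lower.

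Mitochondrially encoded mRNAs could not be placed within 1.5-fold, as none of their 13 intervals was that narrow. Their median was 0.14, and their summed level was 41198, 36420, 44819 and 75502 CPM in mutant replicates 1 to 4 and 43003, 42655, 51003 and 42978 CPM in pinometostat replicates 1 to 4. Mutant replicate 4 was the highest of these 8, and the other mutant values overlapped the pinometostat values.

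**Figure D5:**
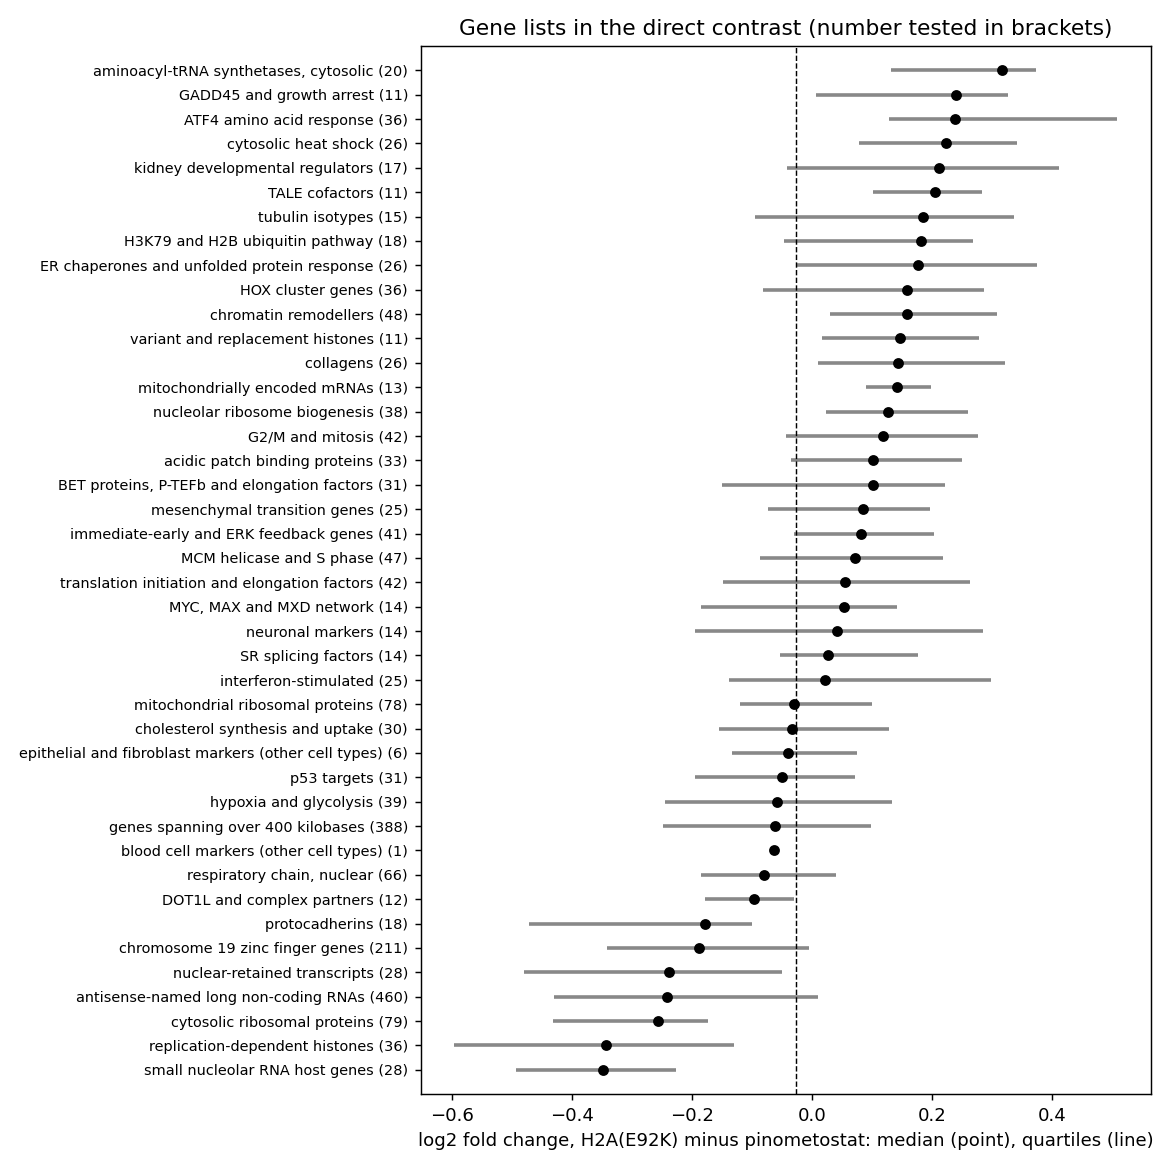
Median (point) and quartiles (line) of the log2 difference, mutant minus pinometostat, for each gene list with the number of tested genes in brackets; the dashed line is the median of all tested genes, -0.03. Host genes of small nucleolar RNAs, histones and ribosomal proteins lie lowest, and aminoacyl-tRNA synthetases highest.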

How the data were processed

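RNA-seq of HEK293T cells gave 1 library per sample, 4 per group. Per the labels, libraries were made by a service provider; for aligner, counter and strand, nothing is given in the sources used here. Gene-level counts, as whole numbers, and TPM values are the authors' deposited units; TPM was recomputed from counts and exonic lengths to the deposited decimals and served in alternatives only. The deposited gene coordinates matched GENCODE release 29 (GRCh38) in start and end for 96.3% of shared identifiers. The labels' treatment text gives pinometostat in millimolar, while the sample field gives 2.5 µM, which was used; the DMSO libraries list no treatment while their titles name DMSO.

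Counts were fitted in R 4.3.3 with edgeR 4.0.16: filterByExpr (minimum count 10, total 15), TMM scaling, a mean per group over 16 libraries, and glmQLFit and glmQLFTest, 2-sided, at a Benjamini-Hochberg adjusted p of 0.05 across all genes in the fit. Standard errors are the log2 difference divided by the square root of F, and intervals use its t quantile. CPM values are TMM-scaled. Alternatives used DESeq2 1.42.0, limma 3.58.1 (voom, and log2 of TPM plus 1 or 0.1), other scalings, filters, libraries and a block on replicate number. Recovery of known changes was tested on simulated data with the spread of the fit on 16 libraries. The test called 11 of 54 changes of 1.5-fold (20.4%), 58 of 76 of 2-fold (76.3%) and 69 of 70 of 4-fold (98.6%). It made 7 false calls. Many differences near 1.5-fold would thus be missed by that fit. Named genes were the 12 largest called differences each way with at least 5 CPM, a symbol and no overlap, and set genes (DOT1L, HOXA9, MEIS1, HEXIM1, MYC, H2A genes). Per list up to 4 members were added by adjusted p, and 2 whose larger absolute interval bound was smallest. Other genes were named after their values were seen. The comparison, members and gene lists were chosen with earlier results of these data known. Promoter letters came from RefSeq (GRCh38.p14), where 12242 of 17306 tested genes matched; the pyrimidine run was added after seeing the data. Within groups, every pair of libraries differed by more than sampling noise (smallest chi-square per degree of freedom 3.54). Intervals cover the spread between libraries.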

Additional observations from a re-analysis of the deposited data

Results flagged for a closer look

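In groups of 4 libraries a value was looked at again when its gap to the nearest of the others exceeded Dixon's 95% critical value as a share of the group's range, which chance gives in about 5% of groups; 8 of 80 groups met this. MARCKS in pinometostat replicate 2 was at 148 CPM against 128 to 130.9 in the other pinometostat libraries, and RPS27 in pinometostat replicate 1 was at 1035 CPM against 1132 to 1145. In mutant replicate 3, JRK was at 26.9 CPM against 19.2 to 19.3 in the other mutant libraries, and RPS12 at 971 CPM against 1178 to 1219. In mutant replicate 4, HOXA9 was at 37.7 CPM against 44.7 to 45.4, MEIS1 at 21.1 CPM against 16.4 to 16.8, and H2AFY2 at 88.7 CPM against 93.4 to 93.9. The 10 most abundant genes held 8.53% of the counts of mutant replicate 4 against 6.67% to 6.98% in the other mutant libraries.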

How the results depend on the processing

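The direction of the 61 called genes was kept in each alternative that tested them, while the number called moved. The calls themselves were not always kept. Of the 61, 45 were called again with library size alone and 47 with upper quartile scaling. With a replicate block on the 8 libraries 15 of 58 tested were called again, and in each of the 2 TPM fits 0 of 56. Against 61 calls, DESeq2 gave 862, voom 86, voom with library quality weights 3160, and edgeR 104 with library size alone, 148 with DESeq2 size factors, 56 with upper quartile scaling, and, with TMM, 178 with mitochondrially encoded genes left out, 306 with no filter, 111 with a minimum of 50 counts, 64 with robust fitting and 383 on the 8 libraries alone. Limma on log2(TPM + 1) and on log2(TPM + 0.1) each gave 4, and an adjusted p of 0.01 gave 0. The share called higher was 47.5% in the reported fit, 32.1% with upper quartile, 66.2% with DESeq2 size factors, 72.1% with library size alone and 73.6% with mitochondrially encoded genes left out. Without JQ1 replicate 1 the count was 1789, and 1566 without mutant replicate 4 as well; alternatives added after seeing the data gave 1059 without the JQ1 group and, without JQ1 replicate 1, 1394 with library size alone and 1493 with upper quartile (48.4% higher). Leaving out 1 library of the compared groups gave 0 to 9 calls, and 798 to 1834 when JQ1 replicate 1 was left out too. With a replicate block the count was 0 (2556 genes at an unadjusted p below 0.05), 44 on the 8 libraries and 1235 without JQ1 replicate 1. Same-numbered mutant and pinometostat libraries had correlations of -0.17, 0.08, -0.62 and -0.01 in their deviations. Whether the numbers mark a shared batch was not tested. Intervals within 1.5-fold held for 8831 of 17306 genes, 8272 with library size alone and 8272 with a replicate block, 7606 of 17575 to 8673 of 17511 without 1 library of the compared groups, 8091 of 18500 with log2(TPM + 1) and 4657 with log2(TPM + 0.1), 12158 of 37095 with no filter, and intervals within 2-fold for 13862. Over 265 genes and 36 alternatives, a call was lost in 411 comparisons, gained in 1372 and turned in 0. The causes were not tested.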
